A study of Mus musculus with 16 samples.

Results

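The genes described here are 9 negative regulators of B cell receptor (BCR) signaling, *Cd22*, *Siglecg*, *Fcgr2b*, *Cd72*, *Pirb*, *Ptpn6*, *Inpp5d*, *Dok3* and *Ptpn22*, chosen by name from the 56691 genes of the matrix, and all 9 had a row in it. They were followed in 637 single germinal center (GC) B cells of the light zone (LZ), the part of the GC where B cells take up antigen and meet T cells. Male C57BL/6J or B6.SJL host mice primed with ovalbumin (OVA) received B1-8hi BTKC481S and B1-8hi BTKWT B cells together, which carry a BCR for the hapten NP, and were boosted with NP-OVA in the hind footpads. BTK is a kinase downstream of the BCR, acalabrutinib inhibits it, and the C481S change makes BTK resistant to the drug. Of the 8 hosts, 5 were given acalabrutinib by oral gavage (A7, A8, A10, A11 and A12, 381 cells) and 3 were given vehicle (V5, V7 and V9, 256 cells). Both genotypes were sorted from popliteal lymph nodes of every host, but the names of the cells hold the host, plate and well and no genotype, so the cells of a host are described together and their mix of genotypes is not known. Drug-resistant cells are therefore part of the acalabrutinib samples as well. The cells came from 2 sorting experiments that the labels do not assign to hosts. Plates were counted as the 15 combinations of host and plate in the cell names. Whether hosts shared a physical plate is therefore not known, and plate and host cannot be told apart between hosts.

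Inhibitory receptors of B cells carry immunoreceptor tyrosine-based inhibitory motifs (ITIMs) in their cytoplasmic tails. When the kinase LYN phosphorylates these tyrosines, the tails recruit the phosphatases SHP-1, the product of *Ptpn6*, and SHIP-1, the product of *Inpp5d*. SHP-1 removes phosphate from tyrosines of the proximal signaling proteins, and SHIP-1 degrades the membrane lipid PIP3 that recruits BTK. GC B cells are known for dampened BCR signaling compared with naive B cells. CD22 and Siglec-G bind sialic acids, FcγRIIB binds IgG in immune complexes, CD72 is a lectin-like receptor of SEMA4D, and PIR-B binds MHC class I. DOK3 is an adaptor that works with SHIP-1, and PTPN22 is a tyrosine phosphatase that acts with the kinase CSK on Src-family kinases.

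The stretches that code for an ITIM show what the 5 receptors share at the place where the 2 phosphatases dock. They are 18 bases of coding sequence in the GENCODE M21 transcripts of build GRCm38, in lower case with the codon of the motif's tyrosine in capitals, and 1 stretch is given for each receptor.
Cd22: gtagacTATgtgaccctc
Siglecg: ctccacTATgctgctctc
Cd72: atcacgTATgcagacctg
Fcgr2b: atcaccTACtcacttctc
Pirb: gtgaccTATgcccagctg

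Translated by script and searched for the ITIM, a tyrosine with isoleucine, valine, leucine or serine 2 places before it and isoleucine, valine or leucine 3 places after it, the tails of CD22, Siglec-G, CD72, FcγRIIB and PIR-B held 4, 3, 2, 1 and 3 matches. The tail of CD72 is the N-terminal end of the protein and the others are C-terminal. The pattern is short and 49.1% of 21562 coding genes hold it somewhere in the protein, so a match alone describes the letters and not a site in use.

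RNA of each cell was read by SMART-seq2, which covers whole transcripts and adds no molecular identifiers, so intervals below cover counting error only. A cell had 132412 to 1825420 counts (median 789357), and the host totals ran from 26778559 to 114987280. All 10 GC B cell markers fixed for this work were found in over 50% of cells, and so were 3 of 6 LZ and all 4 dark zone markers. Of the markers of other cell types, *Cd3e* had a count in 1 cell and *Lyz2* in 3 cells, and *Cd14* and *Itgam* were at 0 in every cell. The lists also held genes found widely, *Lck* of the T cell list in 51.6%, *Adgre1* and *Flt3* of the macrophage, monocyte and dendritic cell list in 38.1 and 29.8%, and *Jchain* of the plasma cell list in 91.2% of cells. Levels are given as CPM, counts scaled to a total of 1000000 and summed over the cells of a host, and ± is the standard deviation (SD) over hosts unless stated.

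The phosphatase genes *Ptpn6* and *Inpp5d* were found most widely, and the receptors ranged from most cells to few (plot of the share of cells by host). *Ptpn6* had a count in 94.8% of cells (exact 95% interval 92.8 to 96.4%) and *Inpp5d* in 93.1% of cells (exact 95% interval 90.8 to 94.9%). Among the receptors, *Cd22* was found in 86.2% of cells (exact 95% interval 83.3 to 88.8%), *Siglecg* in 66.1% of cells (exact 95% interval 62.3 to 69.8%), *Fcgr2b* in 43.5% of cells (exact 95% interval 39.6 to 47.4%) and *Cd72* in 38.3% of cells (exact 95% interval 34.5 to 42.2%). The share in single hosts ran from 77.2 to 92.3% for *Cd22* and from 51.8 to 76.4% for *Siglecg*, wider than these intervals. It ran from 34.6 to 51.9% for *Fcgr2b* and from 27.0 to 48.1% for *Cd72*, also wider. A host had 45 to 130 cells, against 637 in the intervals, so fewer cells alone would widen these ranges too. The adaptor *Dok3* was found in 67.8% of cells (exact 95% interval 64 to 71.4%). *Ptpn22* and *Pirb* had a count in 9.89% of cells (exact 95% interval 7.68 to 12.5%) and 7.69% of cells (exact 95% interval 5.74 to 10.04%), so most cells held no count of either at this depth. Asking for at least 5 counts left these shares at 93.1% for *Ptpn6*, 90.6% for *Inpp5d*, 83.8% for *Cd22*, 60.9% for *Dok3* and 62.5% for *Siglecg*. The share of *Pirb* went from 7.69 to 3.77% and *Ptpn22* from 9.89 to 6.59% under the same requirement.

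**Figure D1:**
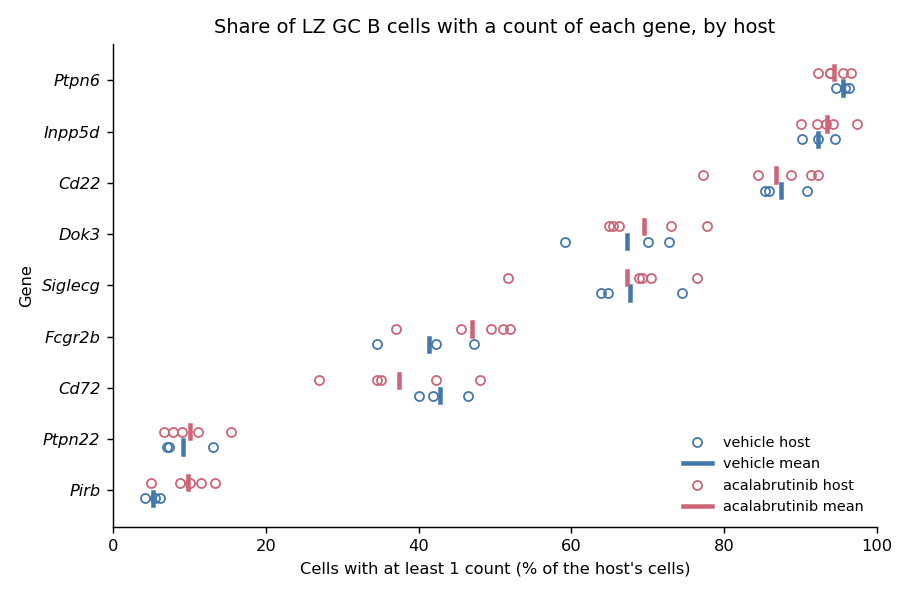
Share of each host's cells with at least 1 count (horizontal axis, percent) for the 9 genes, with an open circle per host and a bar at the mean of each treatment. *Ptpn6* and *Inpp5d* lie at 90.1% or more in every host, *Pirb* and *Ptpn22* lie at 15.4% or less, and the circles of the treatments overlap for every gene.

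The amount in a cell with a count also separated the members. The median over such cells was 954 CPM for *Ptpn6* (quartiles 616 and 1359) and 929 CPM for *Inpp5d* (quartiles 522 and 1454). It was 649 CPM for *Cd22*, 481 for *Siglecg*, 382 for *Dok3*, 359 for *Fcgr2b* and 278 for *Cd72*. *Fcgr2b* and *Cd72* were thus absent from the counts of most cells and present at the levels above in the others, with 232 and 199 of 637 cells at 50 CPM or more. In the 49 cells with a *Pirb* count the median was 8.32 CPM, 65.3% of them were under 50 CPM, and 17 cells reached that level. In the 63 cells with a *Ptpn22* count the median was 80.3 CPM and 34 cells reached 50 CPM. *Pirb* has close paralogs in the *Pira* family, and reads that fit several of them may have been split or dropped in the counting, so its values are uncertain.

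*Pirb* is also expressed by myeloid cells and *Ptpn22* by T cells, so the cells that held them were checked for markers of those types. Of the 49 cells with a *Pirb* count, 48 had at least 5 of 10 GC B cell markers at 50 CPM or more, against 579 of 588 cells without one. At least 2 of 8 macrophage, monocyte and dendritic cell markers were at that level in 0 of the 49 and 1 of the 588. The marker rule was met so rarely in any cell that 0 of 49 cannot decide where the *Pirb* counts came from. Of the 63 cells with a *Ptpn22* count, 58 (92.1%) had at least 5 GC B cell markers, against 569 of 574 cells without a *Ptpn22* count (99.1%). At least 2 of 8 T cell markers were found in 4 of the 63 cells (6.35%), against 6 of the 574 (1.05%). Summed over the list, T cell markers were at 165 to 395 CPM in acalabrutinib and 256 to 353 CPM in vehicle hosts. Most of this sum was *Lck*, at 160 to 379 CPM over hosts and with a count in 51.6% of all cells. No other marker of the list had a mean over hosts above 2.72 CPM. *Lck* was among the 8 markers counted per cell. The part of T cells in the *Ptpn22* values was not tested.

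Per length, *Ptpn6* had the highest level of the 9 genes. With CPM divided by the kilobases of merged exons, the mean over the 8 hosts was 342 ± 37.9 CPM per kb for *Ptpn6*, 126 ± 13.2 for *Inpp5d*, 123 ± 17 for *Cd22* and 113 ± 17 for *Dok3*. It was 77.8 ± 19.7 CPM per kb for *Siglecg*, 35.1 ± 8.57 for *Cd72*, 31.9 ± 8.06 for *Fcgr2b*, 3.25 ± 1.57 for *Ptpn22* and 1.66 ± 1.01 for *Pirb*. *Ptpn6* stood above *Inpp5d* in 8 of 8 hosts (log2 ratio 1.45 ± 0.20 SD). Their merged exons were 2802 and 7602 bases long, and before division the mean levels were 958 and 954 CPM. The order of these 2 genes thus rests on the division by length. *Inpp5d*, *Cd22* and *Dok3* were not ordered beyond the spread, since *Inpp5d* was above *Cd22* in 4 of 8 hosts and *Cd22* above *Dok3* in 5. *Dok3* was above *Siglecg*, and *Siglecg* above *Cd72*, in 8 of 8 hosts each (log2 ratios 0.58 ± 0.37 and 1.14 ± 0.47). Before division *Siglecg* had a higher mean than *Dok3*, at 374 against 279 CPM. *Cd72* and *Fcgr2b* were not separated (4 of 8 hosts), both were above *Ptpn22*, and *Ptpn22* was above *Pirb* in 6 of 8. Reads in introns were counted too, so a level per exon length is approximate.

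The most widely found members, *Ptpn6*, *Inpp5d* and *Cd22*, also varied least between hosts. The highest host had 1.30 times the CPM of the lowest for *Ptpn6*, 1.38 times for *Inpp5d* and 1.44 times for *Cd22*, against 2.13 times for *Fcgr2b* and 2.46 times for *Siglecg*. Plates of the same host could differ about as much: in the 5 hosts with several plates of at least 20 cells, the largest difference between plates in the share of cells with a count was 29 percentage points for *Fcgr2b* and 20.03 for *Cd72*, and the ranges between hosts were 17.3 and 21.1 points.

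The comparison of treatments asks whether giving the hosts acalabrutinib went with a change in these genes. Each sum also holds drug-resistant BTKC481S cells in an unknown proportion, so the effect of blocked BTK alone cannot be read from it. The paper used a low dose of the drug, at which it measured no change in survival of LZ cells. At that dose it did report less dark zone proliferation of BTKWT than of BTKC481S cells, after antigen was delivered independently of the BCR. Among the single cells it reported that BTKWT cells of treated hosts were shifted to a cluster marked by absent BCR signaling. None of the 9 genes passed the test, which was edgeR's quasi-likelihood test on counts summed per host with Benjamini-Hochberg adjustment over all 18016 genes tested. In that test 0 genes (0%) were called, 616 had an unadjusted p under 0.05, and each member had an adjusted p of 1.0. DESeq2 called 446 genes and none of the 9, and limma on the mean log2(CPM + 1) of the cells called 0. The CPM ranges of the treatments overlapped for all 9 genes, while they did not overlap for 2.18% of the genes tested (plot of the level per host).

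In the vehicle hosts V5, V7 and V9 the summed level of *Ptpn6* was 1042, 1075 and 863 CPM, and it was 1068, 1031, 919.6, 829.6 and 839.9 CPM in the acalabrutinib hosts A7, A8, A10, A11 and A12. V7 was the highest and A11 the lowest, so the vehicle hosts did not stand apart. The means were 993 ± 114 and 938 ± 109 CPM, a log2 fold change of -0.10 ± 0.18 SE. For *Inpp5d* the values were 910.3, 1013 and 868 CPM in V5, V7 and V9, and they were 959, 1085, 788, 1069 and 941 CPM in A7, A8, A10, A11 and A12. The hosts A8 and A11 were high and A10 was low. The means were 930.4 ± 74.2 and 968 ± 119.5 CPM, a log2 fold change of 0.040 ± 0.17 SE.

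In the vehicle hosts V5, V7 and V9 the summed level of *Cd22* was 619.9, 659 and 502 CPM, and it was 709, 722, 658, 504 and 571 CPM in the acalabrutinib hosts A7, A8, A10, A11 and A12. The lowest value of either group was about the same, in V9 and A11. The means were 594 ± 82.1 and 633 ± 93.3 CPM, a log2 fold change of 0.076 ± 0.20 SE. For *Siglecg* the values were 304, 479 and 356 CPM in V5, V7 and V9, and they were 404, 486, 413, 198 and 353 CPM in A7, A8, A10, A11 and A12. Host A11 was the lowest of all, and the other 4 acalabrutinib hosts lay within or just above the vehicle range. The means were 379.8 ± 89.8 and 371 ± 108 CPM, a log2 fold change of -0.040 ± 0.29 SE.

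In the vehicle hosts V5, V7 and V9 the summed level of *Fcgr2b* was 218, 160.1 and 129.9 CPM, and it was 277, 206, 150.1, 167 and 173 CPM in the acalabrutinib hosts A7, A8, A10, A11 and A12. Host A7 was the highest and V9 the lowest. The means were 169 ± 44.5 and 194 ± 50.2 CPM, a log2 fold change of 0.18 ± 0.28 SE. For *Cd72* the values were 153, 139 and 123 CPM in V5, V7 and V9, and they were 158, 89.6, 125, 87.7 and 86.6 CPM in A7, A8, A10, A11 and A12. The 3 vehicle hosts were all above 3 of the acalabrutinib hosts and below A7. The means were 138 ± 15.2 and 109 ± 31.7 CPM, a log2 fold change of -0.35 ± 0.27 SE.

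In the vehicle hosts V5, V7 and V9 the summed level of *Dok3* was 211, 328 and 297 CPM, and it was 337, 285, 247, 262 and 265 CPM in the acalabrutinib hosts A7, A8, A10, A11 and A12. Both the lowest and the second highest values came from vehicle hosts. The means were 279 ± 60.4 and 279 ± 35.1 CPM, a log2 fold change under 0.05 in size with an SE of 0.20. *Ptpn22* ranged from 4.15 CPM in A7 to 35.2 in V5 (log2 fold change -0.054 ± 0.67 SE), and *Pirb* from 0.685 CPM in V7 to 12.8 in A8 (0.98 ± 1.12 SE). With SEs of this size, only large differences of these 2 genes would have been detectable. The other members had smaller SEs, from 0.17 (*Inpp5d*) to 0.29 (*Siglecg*). The test called no gene at all, so changes in the other members could have been missed too. The lack of a call therefore does not show that their levels were equal between treatments.

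**Figure D2:**
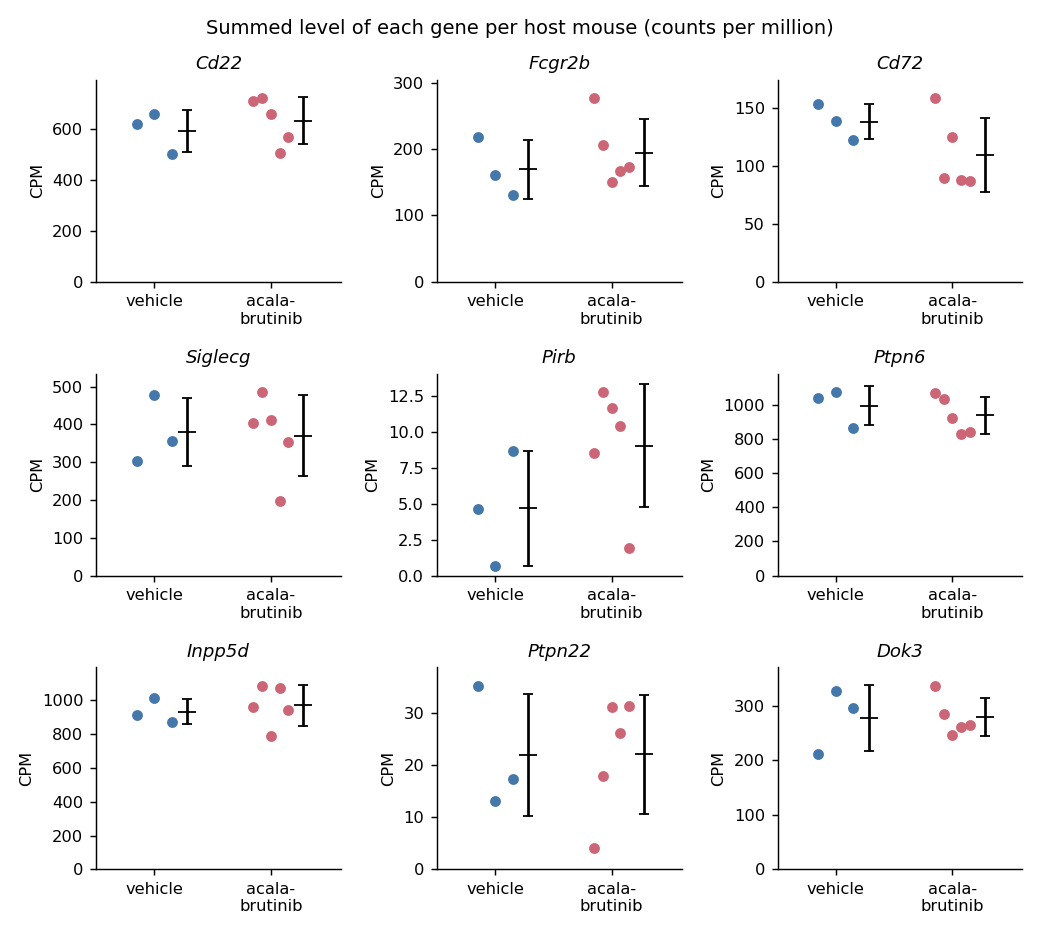
Level in CPM of each gene summed over the cells of a host (vertical axis, linear from 0), with a point per host and the mean ± SD beside the points. The 3 vehicle and 5 acalabrutinib hosts overlap in all 9 panels.

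The share of cells with a count did not pass a test between treatments either. Over hosts, *Fcgr2b* was found in 47 ± 6.09% of cells with acalabrutinib and 41.4 ± 6.37% with vehicle (two-sided exact permutation p = 0.27), and *Cd72* in 37.4 ± 8.05 and 42.8 ± 3.34% (exact permutation p = 0.34). *Pirb* had the smallest p of the members, with 9.74 ± 3.17 and 5.28 ± 0.976% (exact permutation p = 0.089). The shares of the other 6 genes differed by -1.15 (*Ptpn6*) to 2.20 (*Dok3*) percentage points. With 5 and 3 hosts the smallest p of this exact permutation test is 0.018. A gene could therefore pass the adjustment over 18016 genes only if a large part of them reached that p. In this test 0 (0%) passed, with 311 under an unadjusted p of 0.05.

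Cells were next compared by cell cycle state within each host. Scored with 43 S and 54 G2/M phase genes, none of them a member, 263 cells were in G1, 213 in S and 161 in G2/M, and S and G2/M cells together are called cycling. *Ptpn6*, which codes for SHP-1, was lower in cycling than in G1 cells and was the only member called. Its level in the 8 hosts had a lowest, median and highest value of 942, 1162 and 1329 CPM in G1 cells and 749, 833 and 973 CPM in cycling cells. Cycling cells were lower in 8 of 8 hosts and in 13 of 14 plates with at least 5 cells of each state. The log2 fold change -0.48 ± 0.067 SE had an adjusted p of 0.0034 (edgeR, host as a block), and the median of all genes tested was 0.092. Among the 12651 genes tested, 160 (1.26%) were called lower and 305 higher, and 2.1% were lower in all 8 hosts. Cycling cells also had more counts (median 875636.5 against 687239 in G1, and 4309.5 against 3491 genes). With every cell thinned to 459128 counts, the log2 fold change of *Ptpn6* was -0.50 (edgeR adjusted p = 0.0074), but the mean of log2(CPM + 1) over cells, tested with limma, did not pass (-0.31, adjusted p = 0.21). The 10 GC B cell markers were lower in cycling cells as well, with a summed level of median 8849 CPM in G1 and 6653 CPM in cycling cells, in 8 of 8 hosts. So were the 6 LZ markers, with a summed level of median 3615 CPM in G1 and 2240.3 CPM in cycling cells, lower in 8 of 8 hosts, and the 4 dark zone markers had 1077 and 1273 CPM. Their part in the change of *Ptpn6* was not tested. CPM is relative to all counts of the same cells, and RNA per cell was not measured, so a lower share of the RNA and fewer molecules of *Ptpn6* cannot be told apart.

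The other 8 members had a negative fitted change in cycling cells without passing the test. Of all 12651 genes tested, 45.05% had a negative fitted change in the same edgeR fit. Over the alternative fits this share ran from 29.6% (limma) to 57.4% (DESeq2), so it depends on the fit. Whether the shared sign is particular to these genes was not tested. The sign of *Dok3* turned when cells were weighted alike (limma, 0.44) and with another call of cycling cells (0.015). *Inpp5d*, which codes for SHIP-1, had a median over hosts of 1046 CPM in G1 and 870.2 CPM in cycling cells and was lower in 8 of 8 hosts (log2 fold change -0.35 ± 0.087 SE, edgeR adjusted p = 0.057). The sialic acid receptors *Cd22* (704 and 517 CPM) and *Siglecg* (529.6 and 301 CPM) were each lower in 7 of 8 hosts, with log2 fold changes of -0.44 ± 0.13 SE and -0.57 ± 0.17 SE (edgeR adjusted p = 0.10 and 0.11). The exceptions were V5 for *Cd22* and A11 for *Siglecg*. *Fcgr2b* and *Cd72* had log2 fold changes of -0.58 ± 0.22 and -0.78 ± 0.30 SE and were lower in 7 and 6 of 8 hosts, and *Dok3* was at -0.14 ± 0.15 with 5 of 8 hosts lower. Within plates, *Cd22* was lower in 8 of 14 and *Siglecg* and *Inpp5d* in 11 of 14 each. DESeq2 called 5 of the 9 genes lower, *Ptpn6*, *Inpp5d*, *Cd22*, *Siglecg* and *Pirb* (adjusted p = 9.5e-07, 0.018, 0.047, 0.040 and 0.0019), where it called 4.12% of 17909 genes lower. Leaving out host A11 made *Siglecg* pass the edgeR test (adjusted p = 0.034) and leaving out A8 did so for *Inpp5d* (adjusted p = 0.047). The rare genes *Ptpn22* and *Pirb* had median levels of 33.4 and 13.7 CPM in G1 and 15.7 and 0.864 CPM in cycling cells, each set by a few cells.

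Taken apart, both phases stood below G1 for *Ptpn6*, and *Cd22* passed the test in G2/M only (plot of the level by phase). *Ptpn6* had a median over hosts of 867 CPM in S and 779.7 CPM in G2/M cells against 1162 in G1, and each phase was lower than G1 in 8 of 8 hosts (log2 fold change -0.37 ± 0.092 SE, edgeR adjusted p = 0.030, and -0.55 ± 0.092 SE, adjusted p = 0.0013). *Cd22* had a median of 552 CPM in S and 491 CPM in G2/M and was lower than G1 in 6 and 8 of 8 hosts (edgeR adjusted p = 0.23 and 0.039). Of all 12807 genes tested, 100 (0.781%) were called lower in S and 144 (1.12%) in G2/M. Compared directly, G2/M and S cells did not pass the test for *Cd22* (log2 fold change -0.16 ± 0.14 SE, edgeR adjusted p = 0.94) or *Ptpn6* (-0.18 ± 0.092 SE, adjusted p = 0.77), so neither gene was shown to differ between these phases.

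*Dok3* had another pattern, with values in G2/M above those in S. Its lowest, median and highest level over hosts was 128, 207 and 267 CPM in S cells and 250.3, 307 and 423 CPM in G2/M cells. The change from S to G2/M was 0.63 ± 0.17 SE on the log2 scale and did not pass (edgeR adjusted p = 0.25, with 29 genes or 0.226% called in that comparison). Only host A11 was lower in G2/M than in S, at 250.3 against 267 CPM. After thinning, *Dok3* had a count in 78.9% of G2/M cells (116 of 147), 63% of S cells and 62.4% of G1 cells. Over hosts this thinned share was 16.1 percentage points higher in G2/M than in S, in 8 of 8 hosts (two-sided exact sign-flip p = 0.0078, adjusted p = 0.29). In that test 1306 of 12651 genes had an unadjusted p under 0.05. Without thinning the difference was 14.9 points (exact sign-flip p = 0.016, adjusted p = 0.32), and host A11 had the lower share in G2/M. This comparison of phases was added after the values had been seen.

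**Figure D3:**
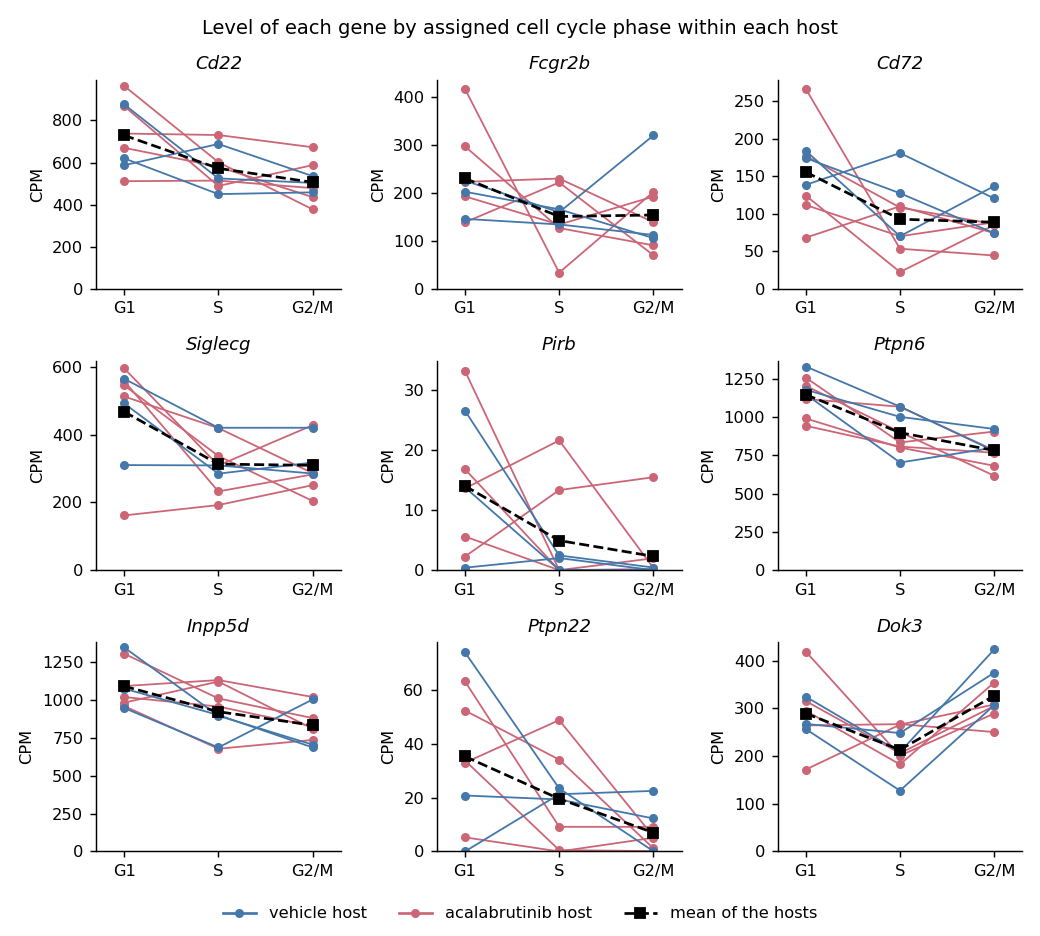
Level in CPM of each gene (vertical axis, linear from 0) in the G1, S and G2/M cells of each host, with a line per host and the mean of the 8 hosts as dashed squares. *Ptpn6* is highest in G1 in all 8 hosts, while *Dok3* is lower in S than in G2/M in 7 of 8.

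Over the pooled cells of the 8 hosts, the amount in cells with a count had a lower median in cycling than in G1 cells for all 9 genes. How many of all genes had such a lower median was not computed, so it is not shown to be particular to these 9. These medians come from unthinned counts, and cycling cells were deeper (median 875636.5 against 687239 counts in G1). The medians and the thinned shares below are thus at unlike depths, and the part of depth in the medians was not tested. The share of cells with a count did not pass the test for any of them. In cells with a count, the median was 804 CPM in G1 and 555 CPM in cycling cells for *Cd22*, 1175 and 841 for *Ptpn6*, and 627 and 398 for *Siglecg*. It was 1043 and 848 CPM for *Inpp5d*, 467 and 319.7 for *Fcgr2b*, 374 and 243 for *Cd72*, and 429.6 and 369 for *Dok3*. At equal depth, *Cd22* was found in 85.6 ± 6.26% of G1 and 89.7 ± 5.72% of cycling cells and *Ptpn6* in 97.1 ± 4.08 and 94.5 ± 2.82% (8 hosts, two-sided exact sign-flip p = 0.070 and 0.20). *Siglecg* was found in 67.8 and 69.3%, *Fcgr2b* in 46.2 and 43.2%, and *Cd72* in 42 and 35.8%. Thinning left 573 cells, 226 in G1 and 347 cycling. No gene of the 12651 passed this test after adjustment (0%, with 3519 under an unadjusted p of 0.05), which cannot give a p below 0.0078 in 8 hosts.

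**Figure D4:**
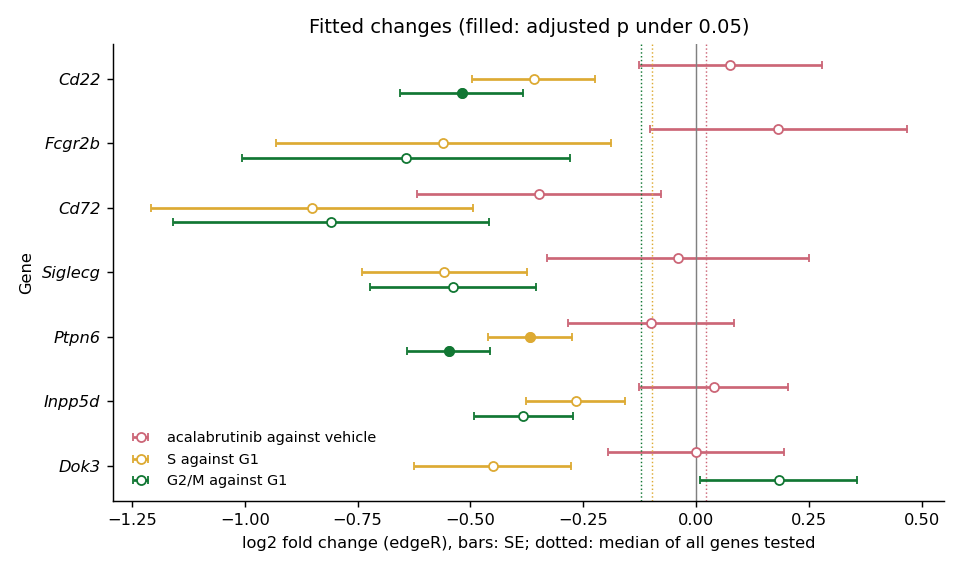
Log2 fold changes from edgeR (horizontal axis, bars are SE) of the 7 genes found in at least 38.3% of cells, for acalabrutinib against vehicle, S against G1 and G2/M against G1, with dotted lines at the median of all genes tested. The filled points, at an adjusted p under 0.05, are *Ptpn6* in S and G2/M and *Cd22* in G2/M, and every treatment point lies within 2 SE of 0.

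The size of the cycling difference was not shown to depend on treatment. In the test of the interaction 0 of 12651 genes (0%) were called by edgeR, with 385 under an unadjusted p of 0.05, while DESeq2 called 444 genes and none of the 9. For *Ptpn6* the cycling change was 0.075 ± 0.14 SE higher on the log2 scale in acalabrutinib than in vehicle hosts, and for *Inpp5d* it was 0.21 ± 0.18 higher (edgeR adjusted p = 1.0 for each). Cycling cells made up 41.6 to 64.9% of the cells in acalabrutinib and 54.5 to 66.9% in vehicle hosts.

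Of 30 genes of the activating side of the BCR pathway, all were tested in cycling against G1 cells and 12 were called lower and 0 higher, where 1.26% of all genes tested were called lower, with a median log2 fold change of -0.38 against 0.092 over all genes tested. They included the receptor subunit *Cd79b* (-0.48 ± 0.066 SE) and the kinase *Lyn* (-0.56 ± 0.072), which phosphorylates the ITIMs (edgeR adjusted p = 0.0030 and 0.0022). *Pik3ap1* and *Sh3kbp1*, which code for the adaptors BCAP and CIN85, and *Itpr2*, which codes for a calcium channel of the endoplasmic reticulum, changed by -0.60 ± 0.087, -0.48 ± 0.089 and -0.91 ± 0.14 SE. The fitted change of *Ptpn6* stood between those of the list median and *Lyn*. Of 34 other phosphatases and attenuators, 31 were tested and 5 were called lower, the kinase *Map4k1* (-0.45 ± 0.074 SE), the receptor phosphatases *Ptprj* (-0.94 ± 0.17) and *Ptprc* (-0.47 ± 0.090), which codes for CD45, the lipid phosphatase *Inpp4b* (-0.78 ± 0.14) and *Csk* (-0.64 ± 0.15), the kinase that restrains Src-family kinases, and 0 were called higher, beside the same 1.26% of all genes. The median of the list was -0.23 against 0.092 over all genes tested. With acalabrutinib, none of the 30 activating or 32 attenuating genes tested was called. The smallest p of the activating list was that of *Btk* (-0.38 ± 0.26 SE, unadjusted edgeR p = 0.17, adjusted p = 1.0). In the attenuating list *Dok2* (5.92 ± 2.54 SE) and *Ubash3a* (3.12 ± 1.34 SE) had the smallest p (unadjusted edgeR p = 0.041 and 0.042). They had a count in 2.04 and 17.9% of cells.

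A further list, set by name for other inhibitory receptors of B cells, held no gene found as widely as *Cd22* or *Siglecg*. Whether the product of each listed gene is a receptor that inhibits BCR signaling was not tested. Of 18 listed, *Fcrl1* had a count in 61.4%, *Btla* in 60.9% and *Pecam1* in 52.7% of cells, *Fcrla* in 48.5%, and 11 in under 10%, of which *Ceacam1*, *Lilrb4a* and *Lilrb4b* were listed at 0 in every cell. Of these, 8 could be tested between cycling and G1 cells and none was called, with a median of -0.28 and the smallest p at *Pecam1* (-0.31 ± 0.17 SE, edgeR adjusted p = 0.49). With acalabrutinib none of 13 was called, with the smallest p at *Fcrla* (-0.32 ± 0.21 SE, adjusted p = 1.0). Genes for ligands of the receptors were present in these cells as well. *St6gal1*, which adds the sialic acid that CD22 binds, had a count in 95% of cells, the CD72 ligand *Sema4d* in 82.9%, the PIR-B ligands *H2-K1* and *H2-D1* in 91.4% and 89.95%, and *Cd24a*, which codes for a sialylated protein, in 86.5%. *Cmah*, of the same list, had a count in only 40.2% of cells. Between treatments *Cmah* had the smallest p of this list and was not called (-0.41 ± 0.21 SE, unadjusted edgeR p = 0.077). How many cells make the ligand of CD22 was not tested. Of the 6 ligand genes tested, *Sema4d* and *H2-K1* fell in S cells (-0.60 ± 0.16 and -0.36 ± 0.095 SE, edgeR adjusted p = 0.050 and 0.043), where 0.781% of all genes were called lower. In G2/M cells *Cd24a* rose (0.50 ± 0.10 SE, edgeR adjusted p = 0.0038) and *Sema4d* fell (-0.70 ± 0.16 SE, adjusted p = 0.019), where 321 of 12807 genes were called higher and 1.12% lower. *B2m*, the light chain of MHC class I, was listed at 0 in every cell, so a value of 0 in this matrix can be a failed count.

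Most cells held several members at once. A cell had counts of 5 of the 9 genes in 30.1% and of 6 in 28.3% of cases, no cell had none and no cell had all 9. At least 1 of the 5 ITIM receptors had a count in 616 cells (96.7%), and 3 of 637 cells had a count of neither *Ptpn6* nor *Inpp5d*. *Cd22* without *Siglecg* was seen in 164 cells and *Siglecg* without *Cd22* in 36. The mean number of members with a count per cell, averaged over hosts, was 5.11 ± 0.368 in G1 and 5.13 ± 0.255 in cycling cells, and 5.16 ± 0.262 in acalabrutinib and 5.09 ± 0.192 in vehicle hosts, differences smaller than the spread over hosts.

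Within a host, the levels of the 9 genes had low correlations across cells (plot of co-expression). The mean over hosts of Spearman's rho of CPM ran from -0.070 to 0.17 over the 36 pairs with a median of 0.036. The cells of a host share plates and depth and the counts are sparse, so these values are descriptions. The highest was *Cd22* with *Siglecg*, both sialic acid receptors, at 0.17 (-0.058 to 0.38 in single hosts, above 0 in 6 of 8), beside a 99th percentile of 0.13 for *Cd22* and 0.13 for *Siglecg* over 5688 other genes. Next came the phosphatases *Ptpn6* and *Inpp5d* at 0.12, beside 0.16 and 0.11 (above 0 in 6 of 8). Then followed *Siglecg* with *Ptpn6* at 0.10 (above 0 in 6 of 8), *Cd22* with *Cd72* at 0.098 (7 of 8) and *Cd22* with *Ptpn6* at 0.095 (6 of 8). Lower than these, *Fcgr2b* with *Inpp5d*, whose product is the main phosphatase of FcγRIIB, was at 0.084 and above 0 in 8 of 8 hosts. That lay below the 99th percentiles of 0.10 for *Fcgr2b* and 0.11 for *Inpp5d*. After thinning the pair was at 0.058 and above 0 in 7 of 8 hosts. *Inpp5d* was at 0.090 with *Siglecg* and 0.085 with *Cd72*. *Ptpn22* with *Dok3* was at -0.070 and below 0 in 8 of 8. Thinning left this pair at -0.063 and above 0 in 1 of 7 hosts, and few cells of a host held *Ptpn22*. Joint detection was close to the product of the shares within hosts: *Cd22* and *Siglecg* were found together in 385 cells against 365 from the product, *Fcgr2b* and *Cd72* in 110 cells against 106, and *Ptpn6* and *Inpp5d* in 563 cells against 562. The mean rho of a member with the number of genes detected in a cell ran from -0.19 (*Ptpn6*) to 0.10 (*Ptpn22*).

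**Figure D5:**
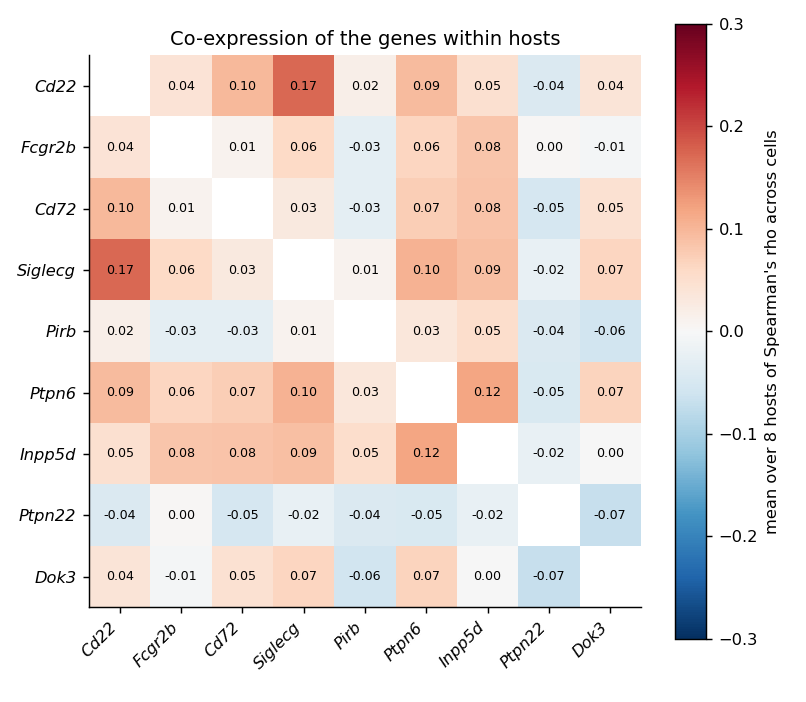
Mean over the 8 hosts of Spearman's rho of CPM across the cells of a host, for each pair of the 9 genes (color scale from -0.3 to 0.3). All 36 values lie between -0.070 and 0.17, with *Cd22* and *Siglecg* the highest.

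Among genes with a count in at least 25% of cells, the 3 whose CPM was most like that of each member across cells, by the mean of rho over the 8 hosts, were found as follows. For *Ptpn6* they were *Cd83* (0.32), *Pik3ap1* (0.29) and *H2-Aa* (0.28), with a median rho of -0.024 over 5688 genes. For *Siglecg* they included *Bach2* (0.27) and *Pitpnc1* (0.21), for *Cd22* *Plekhm3* (0.22), *Snx29* (0.21) and *Bach2* (0.21) and for *Inpp5d* *Bach2* (0.17), *Msi2* (0.16) and *Gm10701* (0.16), so that the transcription factor *Bach2* stood in all 3 lists. For *Cd72* they were *Cd83* (0.17), *Lck* (0.16) and *Dis3l2* (0.15), and for *Fcgr2b* *Pik3ap1* (0.15), *Gm11973* (0.15) and *Sema6d* (0.14). *Cd83*, a marker of LZ cells, was in the lists of *Ptpn6* and *Cd72*, and *Pik3ap1* in those of *Ptpn6* and *Fcgr2b*. For *Dok3* they were *Tut4* (0.22), *Neil1* (0.20) and *Mtss1* (0.20), for *Ptpn22* *Atxn1* (0.19), *Il16* (0.18) and *Pdia4* (0.17) and for *Pirb* *Gm7592* (0.19), *Atxn2* (0.17) and *Pde10a* (0.17). The cells of a host share libraries and depth, and these values are descriptions only.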

How the data were processed

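SMART-seq2 libraries of single LZ B cells from 16 labelled samples (2 genotypes from each of 8 hosts) were analysed. Per the labels and the study's methods, the authors aligned reads with STARsolo 2.7.10a to GRCm39, counted exons and introns of each gene, and removed reads at identical positions. How reads matching several genes were counted is not given in the sources used here. The deposited counts of 637 cells were used as they were, and the study's filter on mitochondrial share and genes removed no cell. Cell names hold no genotype, so cells were pooled by host.

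Phases were called with Seurat 5.3.0 and its S and G2/M gene lists, and 36 cells lay within 0.05 of the boundary. No doublet caller was run on these singly sorted cells. Counts were summed per host, or per host and state, and tested with edgeR 4.0.16 (filterByExpr, TMM, quasi-likelihood test, Benjamini-Hochberg adjustment over all genes tested, threshold 0.05), with host as a block for states. DESeq2 1.42.0 and limma 3.58.1 were alternatives. edgeR was tested on simulated counts first. Recovery of changed genes was required there only at a dispersion lower than that of the data, so its power at the real dispersion is not given. Shares of cells were compared by exact tests over hosts in SciPy 1.17.1. For states, cells were thinned to 459128 counts, the depth at percentile 10, with 64 shallower cells left out. Lengths and coding stretches came from GENCODE M21 on GRCm38, matched by gene identifier, and no coordinates are given because the builds differ.

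The 9 genes and all lists were chosen with earlier results of these data known. From each list, at most the 6 genes with the smallest p among those called were named, or 2 where none was called, together with the 3 genes most like each member. A gene that this rule names is not reported here.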

Additional observations from a re-analysis of the deposited data

Results flagged for a closer look

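Among the 5 acalabrutinib hosts, a host whose distance to its nearest neighbour took most of the range of the group (above the 95% critical value of Dixon) was found in 3 of 54 groups of values tested, and chance gives about 1 in 20. The level of *Cd22* in cycling cells was 703.9 CPM in host A8, above the other acalabrutinib hosts. The level of *Siglecg* in G1 cells was 161.7 CPM in host A11, below the other acalabrutinib hosts, and this is the host without which *Siglecg* passed the test between states. The share of G1 cells with a *Ptpn22* count was 19.05% in host A10, above the other acalabrutinib hosts, and it rests on 4 of 21 cells.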

How the results depend on the processing

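In the comparison of treatments, edgeR and limma called 0 genes, also without any one host (0 to 0 genes), and DESeq2 called 446. Between cycling and G1 cells, where edgeR called 465 genes, DESeq2 called 2225, limma on cell means 2583 and edgeR without the filter on low counts 285, and without any one host the count ran from 317 to 372. Of the calls, 34.4% were lower in cycling cells with edgeR and 4.0% with limma. The interaction had 444 calls with DESeq2, and G2/M against S cells, added after the data were seen, had 29. *Ptpn6* was called lower in cycling cells under all alternatives except limma (-0.31), and without any one host its log2 fold change ran from -0.51 to -0.44. With no replicate block for the host, 446 genes were called and *Ptpn6* was at -0.48 (edgeR adjusted p = 0.016), and no call of a member changed. No paired analysis was possible between treatments because their hosts share 1 replicate number. The sign of small values turned under some alternatives, and the cause was not tested. For treatment these were *Siglecg* after thinning (0.047), *Ptpn22* with limma (0.095) and *Dok3* without the filter (-0.016). Without any one host the range crossed 0 for *Cd22* (-0.096 to 0.16), *Fcgr2b* (-0.035 to 0.45), *Siglecg* (-0.18 to 0.18), *Inpp5d* (-0.078 to 0.11), *Ptpn22* (-0.32 to 0.54) and *Dok3* (-0.14 to 0.15). Values that kept their sign but moved by over 1.5 times were those of *Cd72* (-0.56 without A7, with an unadjusted edgeR p of 0.031, to -0.23 without V5), *Ptpn6* (-0.26 without V9 to -0.026 without V5) and *Pirb* (0.47 without V7 to 1.66 without V9), and none was called. For states, *Dok3* turned with limma (0.44) and with cycling cells called by a median split (0.015). The differences in share that turned were, between treatments after thinning, *Siglecg* (4.34 points), *Inpp5d* (-0.886) and *Ptpn22* (-1.28), and between states with at least 5 counts, *Inpp5d* (-0.0490). Depth limits *Pirb* and *Ptpn22*, which rest on 49 and 63 cells.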
